A study of Mus musculus with 8 samples.

Results

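The B7 ligands are immunoglobulin-type surface proteins with which dendritic cells tell T cells whether to respond to the antigen they are shown. Cd80 and Cd86 bind Cd28, which drives T cell activation, and Ctla4, which restrains it. Cd274 (PD-L1) and Pdcd1lg2 (PD-L2) bind the inhibitory receptor Pdcd1, Icosl binds Icos, and Cd276 (B7-H3) and Vsir (VISTA) are further family members. Cd83 marks mature dendritic cells, Cd200 binds the inhibitory receptor Cd200r1, and Pvr (CD155) binds the activating receptor Cd226 and the inhibitory receptor Tigit. These 10 genes were taken as a group by their symbols in the platform annotation and were found in 11 of the 22206 probe sets tested, 2 of them for Cd83. The tested probe sets stand for 19505 named genes. All 11 were analysed, with no filter on low signals.

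Gene expression was measured on 8 Affymetrix whole-transcript arrays of splenic type 1 conventional dendritic cells (cDC1), a dendritic cell subset known for cross-presentation, taken from wild-type, naive mice of strain C57BL/6. Sorted TMRM/MG-high cells gave 4 arrays and TMRM/MG-low cells gave 4. TMRM reports the membrane potential of mitochondria, and the labels do not spell out MG. Both groups are wild type and untreated, and the labels used here give no age, no sex and no count of animals per array. The replicate numbers 1 to 4 occur in both groups and are tied by no label to an animal, pool or day, so p-values reflect the spread of these samples alone, and it may be technical. The design asks how the 2 fractions differ.

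The median log2 signal was 8.11 to 8.16 on every array, and precision is limited by how many arrays there are. Over all probe sets, arrays correlated at 0.992 to 0.994 within the high and 0.990 to 0.992 within the low fraction, and at 0.982 to 0.992 between fractions. Of 13 cDC1 markers none was called different between the fractions, which by itself does not test the cDC1 label. At an unadjusted limma p under 0.05, 3 were higher in the high fraction and 1 was lower. The fractions did not overlap in 2 that were higher, among them Xcr1, and 2 that were lower, among them Clec9a. Over all probe sets, 9.70% were higher and 6.37% lower without overlap. Xcr1, the chemokine receptor of cDC1, had a mean log2 signal of 12.7 ± 0.052 in high arrays and 12.5 ± 0.11 in low ones (SD, n = 4 each), and the dead-cell receptor Clec9a had 11.8 ± 0.052 in high arrays and 12.0 ± 0.048 in low ones. Irf8 and Batf3, the lineage factors, differed by -0.17 and 0.20.

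Marker genes of other cell types differed between the fractions, and their values stand here because every comparison uses the same arrays. Markers of plasmacytoid dendritic cells were higher in the high fraction for 11 of 13 genes, with a mean level per array of 9.95 to 10.4 in high arrays and 9.23 to 9.41 in low ones, among them Klk1 (difference 1.52), Siglech (1.81) and Bst2 (0.79). T cell markers were lower for 4 of 9 (8.43 to 8.70 in high arrays and 8.71 to 9.29 in low ones), among them Cd3e (-0.86), Cd3d (-0.82) and Cd3g (-0.76). All 9 T cell markers had an unadjusted limma p under 0.05 and were lower in the high fraction. None of 8 NK cell markers was called (8.46 to 9.29 in high arrays and 8.81 to 9.90 in low ones), though 6 had an unadjusted limma p under 0.05, all lower in the high fraction. Of 9 neutrophil markers 1 fell, Csf3r (-0.81; list level 8.58 to 9.64 in high arrays and 9.43 to 10.3 in low ones), and S100a8 differed by -0.84 without a call. The median of the neutrophil list was -0.68, and 4 of the 9 had an unadjusted limma p under 0.05, all lower. Over all probe sets 2246 of 22206 were lower at that p. Of 11 macrophage and monocyte markers 1 rose, Ly6c1 (0.72; list level 9.90 to 10.4 in high arrays and 9.94 to 10.2 in low ones), and Adgre1 differed by -0.08. Of 10 cDC2 markers 2 fell, Tbx21 (-0.88) and Notch2 (-0.33, a call kept in 2 of 8 omissions of an array), the list median was 0.05, and Clec10a (0.39) and Clec12a (0.16) lay higher without a call. The level of the cDC2 list was 9.16 to 9.58 in high arrays and 9.18 to 9.52 in low ones. None of 9 B cell markers or 4 erythroid and platelet markers was called, and none of these had an unadjusted p under 0.05. In these lists only Trat1 among the T cell and Mgl2 among the cDC2 markers lay below the median of the negative controls. The mean of the 4 poly-A spike-ins, RNAs added in known amounts before labelling, was 6.32 ± 0.44 in high arrays and 7.55 ± 0.28 in low ones (SD, n = 4 each), with no overlap. The part of these differences in the results on the B7 ligands was not tested beyond the values given with them. In bulk samples, the number of cells of a type, RNA per cell and expression by the cDC1 themselves cannot be told apart.

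The promoter windows of 7 of the 10 genes were in the RefSeq table (build GRCm38.p6), each running from 250 bases before to 50 after the start site, and those of Cd83, Cd86 and Pvr were not used here. Shown are that of Cd274, whose fractions did not overlap, and that of Cd80, which alone among the 7 held one of the motifs searched. The Cd274 window lies at chr19:29367188-29367487 on the plus strand and the Cd80 window at chr16:38458683-38458982 on the plus strand. Capitals mark the AP-1 motif.
Cd274: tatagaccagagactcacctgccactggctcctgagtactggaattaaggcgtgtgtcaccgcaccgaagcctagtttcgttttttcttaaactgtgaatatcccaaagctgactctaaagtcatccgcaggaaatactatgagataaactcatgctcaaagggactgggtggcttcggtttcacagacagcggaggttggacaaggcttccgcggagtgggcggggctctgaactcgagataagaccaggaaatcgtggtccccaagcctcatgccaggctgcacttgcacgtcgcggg
Cd80: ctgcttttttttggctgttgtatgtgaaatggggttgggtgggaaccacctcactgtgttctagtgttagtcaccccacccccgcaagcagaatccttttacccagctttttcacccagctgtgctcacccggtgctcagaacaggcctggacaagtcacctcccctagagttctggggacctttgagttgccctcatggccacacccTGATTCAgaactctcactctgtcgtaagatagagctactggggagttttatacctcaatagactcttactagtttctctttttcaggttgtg

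A set of 4 motifs was searched on both strands. The AP-1 motif TGANTCA matched in 1 of the 7 windows, that of Cd80, as TGATTCA beginning at base -42 from the start site. It occurs in 7.81% of the 32851 windows in the table. The interferon-factor motif (GAAA, any 2 bases, GAAA) occurs in 3.44% of windows, the STAT motif TTCNNNGAA in 8.30% and an NF-kB type motif (GGG, any 2 bases, TTTCC) in 1.63%, and none of these matched in the 7. A match is a description of sequence, and no match says only that these letters are not in this window. The GC content of the windows was 45.0% in Cd200, 46.0% in Pdcd1lg2, 49.7% in Cd80, 52.7% in Cd274, 63.7% in Vsir, 68.0% in Icosl and 78.3% in Cd276.

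Most B7 ligand genes differed little between the fractions. The differences ran from -0.07 for Icosl to 0.29 for the first Cd83 probe set on the log2 scale, high minus low, with a median of 0.14, against 0.01 over all probe sets tested. A probe set is called when its limma p, adjusted by Benjamini-Hochberg over all 22206 probe sets, is under 0.05. Of the 11 probe sets, 1 was called higher, where 5.28% of all probe sets were, and 0 were called lower, where 2.96% were (8.25% in either direction). At an unadjusted limma p under 0.05, 3 of the 11 were higher, against 15.3% of all, and 0 were lower, against 2246 of all 22206. In 3 of the 11 every high array lay above every low array, against 9.70% of all probe sets, and the reverse held in 0, against 6.37%. Such a separation has an exact permutation p = 0.0286, the smallest possible here, which is 0.178 after adjustment over all probe sets. The difference was above 0 in 8 of the 11, against 52.1% of all. The 95% limma intervals of all 11 lay within -0.28 and 0.47, inside a 1.5-fold difference (0.58 on the log2 scale) in either direction. With the mean spike-in signal as a covariate, the difference itself passed that limit in Pvr alone, at 0.627, and no member was called. The intervals of that fit were not set against the limit. The spike-in mean did not overlap between the fractions, so the fit can hardly tell it from the fraction. It called 0 probe sets on the whole array, and even Siglech, at 1.474, had a limma adjusted p = 0.739. Covariate values below are thus no test of whether a difference holds. In the fit that gave the calls above, without the covariate, the smallest difference called was 0.265 in size, and 10 of the 11 members were below that. This size belongs to that fit alone. Among calls on the whole array 64.1% were higher in the high fraction, against 49.8% after quantile normalization of the tested probe sets. That normalization also moved the members, whose differences then ran from -0.146 for Icosl to 0.215 for the first Cd83 probe set. The median over all probe sets was then -0.003.

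**Figure D1:**
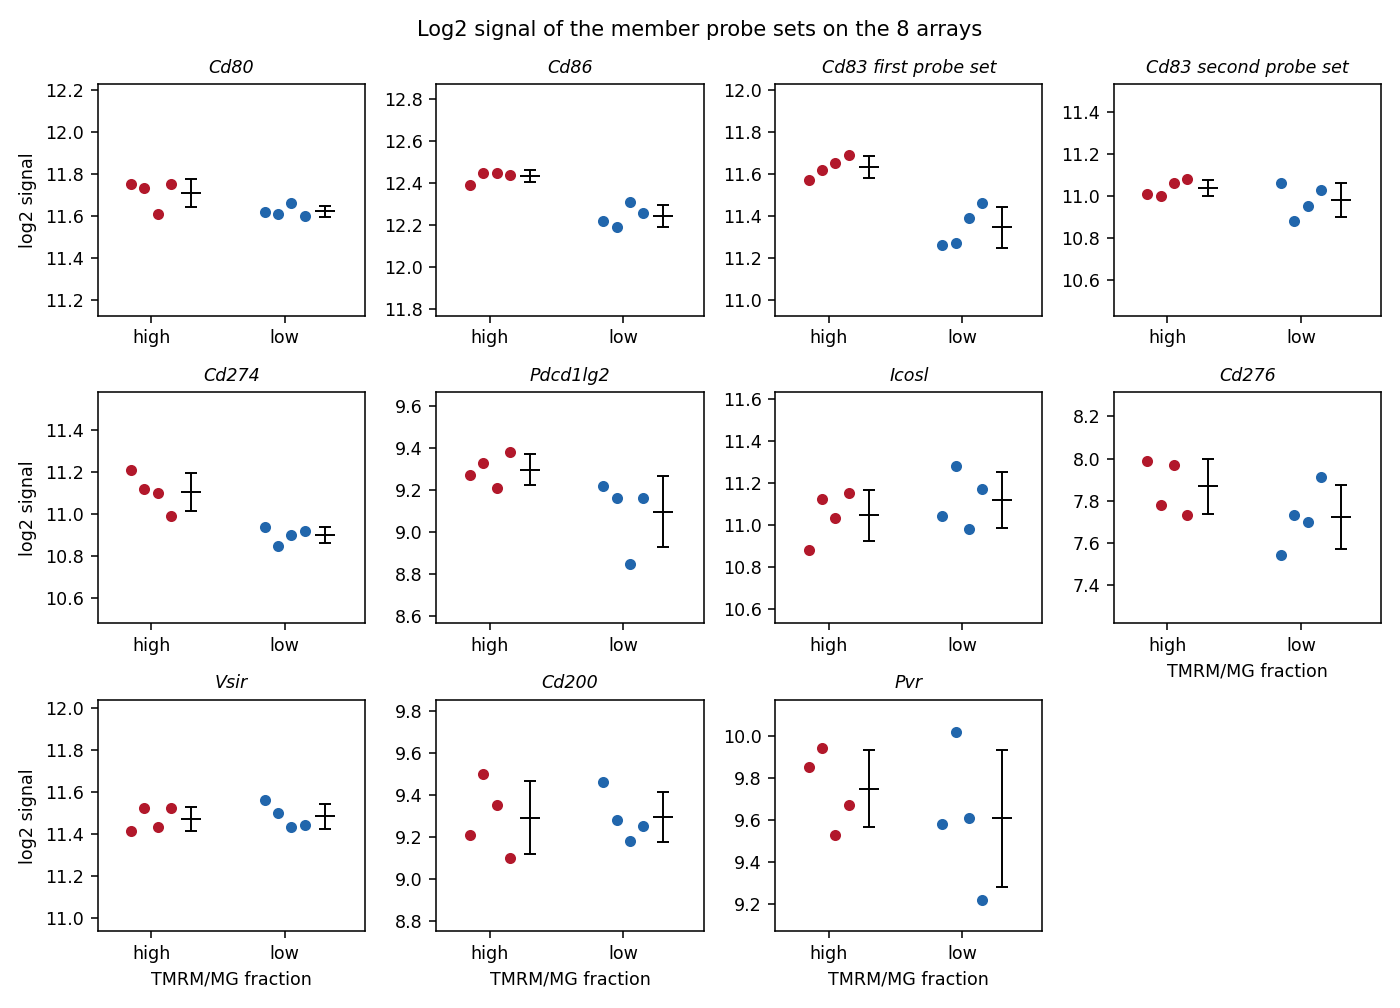
Log2 signal of each B7 ligand probe set (vertical axis, the same span of 1.1 in every panel, not starting at 0) in the 4 TMRM/MG-high (red, left) and 4 TMRM/MG-low (blue, right) arrays; points are arrays, and the black mark is the mean with its SD. The fractions do not overlap in Cd86, Cd274 and the first Cd83 probe set.

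Cd80 and Cd86 are the classical costimulatory pair. Cd86 had log2 signals of 12.39, 12.45, 12.45 and 12.44 in high replicates 1 to 4, against 12.22, 12.19, 12.31 and 12.26 in low replicates 1 to 4. Every high array lay above every low array, and both groups were tight, with SDs of 0.026 in high arrays and 0.052 in low ones. The difference was 0.19 (SE 0.074, 95% interval 0.02 to 0.35, n = 4 each), or 1.14-fold, with a limma adjusted p = 0.143 that did not pass. Under an intensity trend with a robust fit, which lets bright probe sets have a smaller spread, the same difference was called (limma adjusted p = 0.0121). After quantile normalization the Cd86 difference was 0.116 (limma adjusted p = 0.314). The covariate fit gave 0.071 for Cd86. Without any 1 array it was 0.17 to 0.21.

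Cd80 had log2 signals of 11.75, 11.73, 11.61 and 11.75 in the high arrays, against 11.62, 11.61, 11.66 and 11.60 in the low arrays. In all, 3 high arrays lay above all low arrays, and high replicate 3 lay among them. The difference was 0.09 (SE 0.076, 95% interval -0.08 to 0.25), with a limma adjusted p = 0.513. For Cd80 it was 0.012 after quantile normalization and 0.149 with the covariate.

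Cd83 was measured by 2 probe sets, annotated to different RefSeq transcripts of the gene, and they did not move alike. The first, from a set of probe sets that the array design leaves unplaced on the genome, had log2 signals of 11.57, 11.62, 11.65 and 11.69 in the high arrays, against 11.26, 11.27, 11.39 and 11.46 in the low arrays. No high array fell among the low ones. The difference was 0.29 (SE 0.081, 95% interval 0.11 to 0.46), or 1.22-fold, and it was the 1 called among the 11 (limma adjusted p = 0.0484). The call was lost in each of the 8 omissions of an array (0.26 to 0.33, limma adjusted p = 0.0504 to 0.123), on quantile normalization (0.215), on centring on array medians (0.275), and with the replicate number as a block (limma adjusted p = 0.0576). Adding the mean spike-in signal, which can hardly be told from the fraction, gave 0.095.

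The second Cd83 probe set, placed on chromosome 13 by its identifier, had log2 signals of 11.01, 11.00, 11.06 and 11.08 in the high arrays, against 11.06, 10.88, 10.95 and 11.03 in the low arrays. The groups overlapped. The difference was 0.06 (SE 0.078, 95% interval -0.11 to 0.23, limma adjusted p = 0.688), and it turned to -0.019 on quantile normalization. The mean of both probe sets differed by 0.174 and was not called (limma adjusted p = 0.179).

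Whether the probe sets differed from each other was tested within arrays, after their values had been seen. The first minus the second was 0.56, 0.62, 0.59 and 0.62 in the high arrays, against 0.20, 0.40, 0.44 and 0.43 in the low arrays. The groups did not overlap, and the gap of 0.23 had an exact permutation p = 0.0286 (both directions), the smallest that 4 against 4 arrays can give. The lowest value, 0.20 in low replicate 1, carried part of the gap, which was 0.17 without that array. Of the 55 genes with several probe sets, 10 had a larger spread of differences between their probe sets than Cd83 (0.229), and the median spread was 0.153. Of the 64 unplaced probe sets on the array 4 were called, and their median difference was -0.05. Which probes of Cd83 each set holds was not tested.

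**Figure D2:**
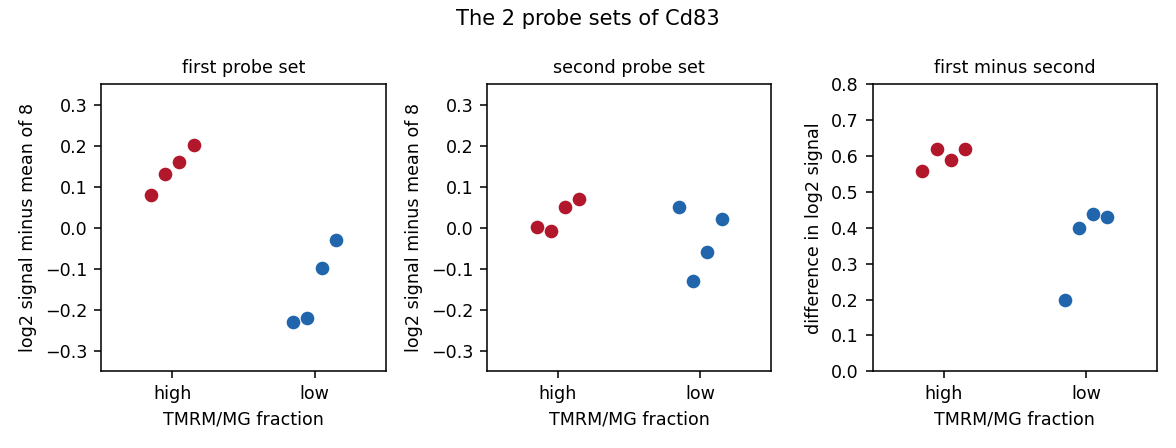
The first and the second Cd83 probe set (left and middle, log2 signal minus the mean of its 8 arrays) and their difference within each array (right, log2), for the TMRM/MG-high (red) and TMRM/MG-low (blue) arrays. The first probe set separates the fractions, the second does not, and the within-array difference is 0.56 to 0.62 in high arrays and 0.20 to 0.44 in low ones.

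The genes with the array pattern most like that of the first Cd83 probe set were Ngdn, Fh1 and Antkmt. Likeness was the root mean square difference of profiles centred on their own mean over the 8 arrays, which was 0.0253 for Ngdn, 0.0325 for Fh1, the fumarate hydratase of the TCA cycle, and 0.0328 for Antkmt. They differed between the fractions by 0.29 (limma adjusted p = 0.0568), 0.29 (adjusted p = 0.0483) and 0.34 (adjusted p = 0.0286). Choosing genes by this likeness picks those that differ by a similar amount. Their differences and p-values are thus no separate support for the Cd83 result, and a link between these genes was not tested.

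Cd274 and Pdcd1lg2 are the ligands of Pdcd1 and lie next to each other on chromosome 19. Cd274 had log2 signals of 11.21, 11.12, 11.10 and 10.99 in the high arrays, against 10.94, 10.85, 10.90 and 10.92 in the low arrays. Every high array lay above every low array, though high replicate 4 cleared the highest low array narrowly. The difference was 0.20 (SE 0.079, 95% interval 0.03 to 0.37), or 1.15-fold, and did not pass (limma adjusted p = 0.140). For Cd274 it was 0.121 after quantile normalization and 0.305 with the covariate. The 4 high arrays ranked in Cd274 in the opposite order to their rank in the first Cd83 probe set.

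Pdcd1lg2 had log2 signals of 9.27, 9.33, 9.21 and 9.38 in the high arrays, against 9.22, 9.16, 8.85 and 9.16 in the low arrays. In all, 3 high arrays lay above all low arrays, and low replicate 3 was far below the rest. The difference was 0.20 (SE 0.097, 95% interval -0.01 to 0.41, limma adjusted p = 0.221), and 0.116 without low replicate 3. With the covariate the Pdcd1lg2 difference was 0.341.

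The measured protein-coding genes flanking the pair were read as well, chosen after their values were seen. On one side Plgrkt differed by 0.01 (SE 0.18) and Rln1 by -0.15 (SE 0.16). On the other side Ric1 rose by 0.32 (SE 0.078, limma adjusted p = 0.0306, no overlap), and Ermp1 differed by 0.34 (SE 0.12, adjusted p = 0.0884). In this stretch the called gene was thus not one of the Pdcd1 ligands. Next to the other B7 ligand genes no flanking gene was called, with differences from -0.27 for Cdh23 beside Vsir to 0.32 for Casr beside Cd86.

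Icosl, Cd276 and Vsir form the rest of the B7 family here. Icosl had log2 signals of 10.88, 11.12, 11.03 and 11.15 in the high arrays, against 11.04, 11.28, 10.98 and 11.17 in the low arrays, with overlap. Its difference of -0.07 (SE 0.096, 95% interval -0.28 to 0.14, limma adjusted p = 0.690) was the lowest of the 11. For Icosl it was -0.146 after quantile normalization and -0.170 with the covariate. Vsir had 11.41, 11.52, 11.43 and 11.52 in the high arrays, against 11.56, 11.50, 11.43 and 11.44 in the low arrays. The Vsir difference was -0.01 (SE 0.077, limma adjusted p = 0.929), with a 95% interval of -0.18 to 0.15, the groups covered one range, and the sign turned on leaving out high replicate 1 or low replicate 1. After quantile normalization Vsir differed by -0.085.

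Cd276 had log2 signals of 7.99, 7.78, 7.97 and 7.73 in the high arrays, against 7.54, 7.73, 7.70 and 7.91 in the low arrays. The groups overlapped, and the difference was 0.15 (SE 0.10, 95% interval -0.07 to 0.37, limma adjusted p = 0.389). Cd276 was the dimmest member. On its lowest array it exceeded 66.0% of the 5222 negative control probe sets, where the other members exceeded 86.2% or more. Their median was 6.86 in high arrays and 6.76 in low ones.

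Cd200 and Pvr signal through receptors outside the Cd28 family. Cd200 had log2 signals of 9.21, 9.50, 9.35 and 9.10 in the high arrays, against 9.46, 9.28, 9.18 and 9.25 in the low arrays. Its group means were alike (difference -0.002, SE 0.10, 95% interval -0.23 to 0.22, limma adjusted p = 0.993), and it was -0.047 after quantile normalization. Pvr had 9.85, 9.94, 9.53 and 9.67 in the high arrays, against 9.58, 10.02, 9.61 and 9.22 in the low arrays. It varied most within groups, with SDs of 0.19 in high arrays and 0.33 in low ones, and low replicate 2 was the highest array of all 8. The Pvr difference of 0.14 (SE 0.15, 95% interval -0.18 to 0.47, limma adjusted p = 0.601) was 0.280 without low replicate 2 and 0.015 without low replicate 4. For Pvr it was 0.093 after quantile normalization and 0.627 with the covariate.

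**Figure D3:**
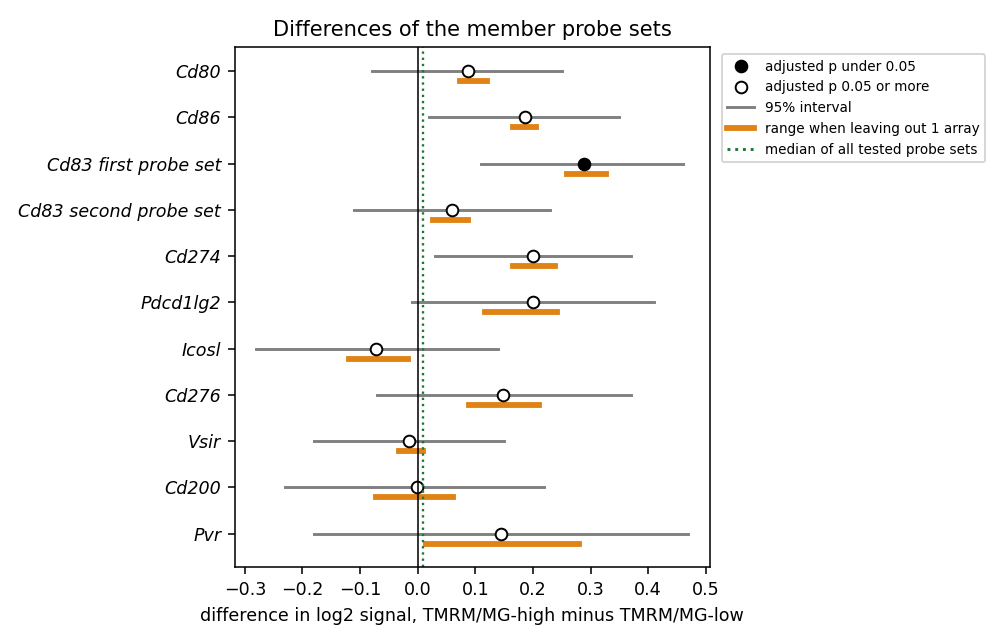
Difference in log2 signal (high minus low, horizontal axis) of each B7 ligand probe set with its 95% limma interval (grey) and the range over leaving out each array (orange). The dotted green line is the median of all tested probe sets, and the single filled point is the first Cd83 probe set, at 0.29.

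The receptors of these ligands include Cd28, Ctla4, Icos, Pdcd1 and Tigit, and the list also holds the Cd200r genes, Rgmb and Selplg. Of 13 measured, 1 fell and 0 rose, and the median difference was -0.17. Tigit, the inhibitory receptor of Pvr, had a mean log2 signal of 7.07 ± 0.12 in high arrays and 7.62 ± 0.34 in low ones (SD, n = 4 each), a difference of -0.56 (SE 0.15, limma adjusted p = 0.0403) that stayed called in 1 of the 8 omissions, that of low replicate 4. Pdcd1 differed by -0.39 (adjusted p = 0.0521) and Ctla4 by -0.32 (adjusted p = 0.123), whereas Cd28 differed by -0.17 and Cd200r1 by 0.05. The T cell markers given above were lower in the same arrays, and their part in the Tigit result was not tested.

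Of 15 other B7 and butyrophilin family genes measured, 1 fell and 0 rose, with a median difference of -0.12, and 4 lay below the negative control median. The 1 was Btnl9, a butyrophilin-like gene (-0.41, SE 0.11, limma adjusted p = 0.0401; kept in 2 of 8 omissions, and -0.15 with the covariate), whose mean in the high arrays (6.73) lay below the negative control median, so the size is uncertain. The nectin family, to which Pvr is related, had 0 of 8 called (median -0.16; 0 of 8 with an unadjusted p under 0.05), with Crtam at -0.37 and Nectin1 at -0.16.

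Costimulation by the TNF family had 0 of 8 called (median 0.04; 3 with an unadjusted p under 0.05). Cd40, the receptor through which T cells license dendritic cells, had 10.6 ± 0.049 in high arrays and 10.3 ± 0.14 in low ones (SD, n = 4 each), a difference of 0.28 (SE 0.088, limma adjusted p = 0.0706) with no overlap. Tnfsf8 differed by -0.37 but lay below the negative control median. Of 18 other inhibitory ligands and checkpoint genes 0 were called (median 0.08; 5 with an unadjusted p under 0.05), with Lag3 at 0.28 (adjusted p = 0.0849) and Havcr2, the TIM-3 receptor, at 0.35 (adjusted p = 0.107).

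Genes that control how much B7 ligand stays on the surface went both ways. Of 14 measured, 2 rose and 1 fell (median 0.03). Cmtm6, which protects PD-L1 from degradation, had 11.3 ± 0.12 in high arrays and 10.9 ± 0.16 in low ones (SD, n = 4 each; difference 0.36, SE 0.10, limma adjusted p = 0.0483), a call kept in 2 of 8 omissions and turned to -0.045 with the spike-in covariate. Cops5, a deubiquitinase reported to stabilise PD-L1, rose by 0.47 (SE 0.096, adjusted p = 0.0173; kept in 6 of 8). Hip1r, which sends PD-L1 to lysosomes, fell by 0.69 (SE 0.12, adjusted p = 0.0110; kept in all 8). Marchf1, the ligase that removes Cd86 from the surface, differed by -0.19 (adjusted p = 0.246).

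The interferon-gamma route induces Cd274. Of 11 measured genes 1 rose and 1 fell (median 0.01). Irf2, a factor that opposes Irf1 at interferon-responsive genes, fell by 0.69 (SE 0.087, limma adjusted p = 0.00237; kept in all 8 omissions), and Ptpn2, a phosphatase of Jak and Stat proteins, rose by 0.27 (SE 0.076, adjusted p = 0.0486; kept in none). Of 22 NF-kB, IRF and AP-1 genes and other factors listed with them (Myc, Hif1a, Spi1 and Tfeb), 1 rose and 3 fell (median -0.06). The falls were Jund (-0.68, SE 0.099, adjusted p = 0.00465; kept in all 8), Jun (-0.40, kept in 3) and Myc (-0.37, kept in 1), and the rise was Hif1a, which is known to raise Cd274 in hypoxia (0.41, kept in 2).

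The wider maturation and presentation programmes give the setting for the B7 ligands. Of 29 DC maturation genes other than the members 3 rose and 1 fell (median 0.07): Il15 (0.63, SE 0.12, limma adjusted p = 0.0126; kept in all 8), Ccl22 (0.60, kept in 3) and Cxcl10 (0.32, kept in 1) rose, and Tnfrsf9 (-0.60, kept in 2) fell. Of 20 MHC presentation genes 2 rose and 1 fell (median 0.11), with Ctsl, a lysosomal protease, at 0.87 and Ciita, the class II transactivator, at -0.60, both kept in all 8. Canx, a chaperone of class I, was at 0.34, kept in 2 of 8 and lost after quantile normalization (0.268, limma adjusted p = 0.0581) and after centring (adjusted p = 0.0583). Over all pathway lists, each gene once, 9 of 158 rose and 9 fell, with a median of 0.02.

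**Figure D4:**
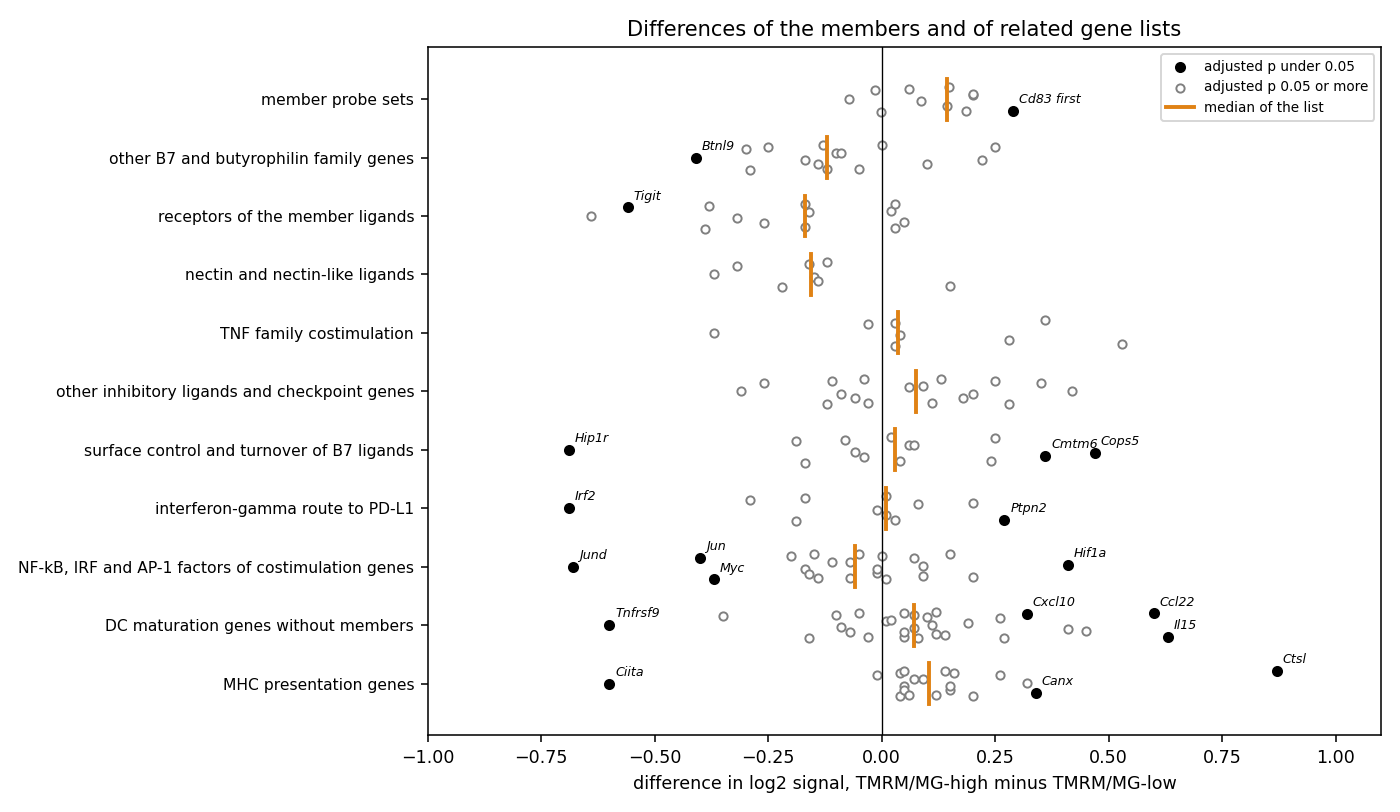
Difference in log2 signal (high minus low, horizontal axis) of each B7 ligand probe set (top row) and of each gene of the related lists; filled points have an adjusted p under 0.05 and are named, and orange bars are list medians. The member median is 0.14, and those of the lists run from -0.17 to 0.11.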

How the data were processed

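Per the submitters' processing notes, the deposited log2 signals are RMA values from Affymetrix Expression Console 1.1, which corrects background, equalises the arrays' distributions and summarises probes per probe set, so a difference is relative to the rest of the array. Targets were made with the WT Plus assay, per the labels. The build behind the array design was not given in the sources used here. Of 28846 rows, 6640 control probe sets were left out.

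The fractions were compared with limma 3.58.1 (lmFit, then eBayes; R 4.3.3) with no block, and p-values were adjusted by Benjamini-Hochberg over 22206 probe sets, at a threshold of 0.05. The procedure was also run on simulated data with independent noise and known changes. These data held no difference between fractions in cell types, spike-ins or normalization, so the effect of such differences was not tested. In lists, a gene with several probe sets was read by the one of highest mean. The members and lists were chosen with earlier results of these data known. Named were all members, up to 6 called genes per pathway list (2 by smallest p where none was called), up to 3 called markers per list, a few lineage genes, and the 3 genes most like a called member. Clec10a, Clec12a, Pdcd1, Ctla4, Cd28, Cd200r1, Marchf1 and the flanking genes lie outside this rule and were picked with their values in view.

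Alternatives were a replicate block, quantile normalization, median centring, a filter on dim probe sets, limma's trend and robust options, array weights, the mean poly-A spike-in level as a covariate, thresholds of 0.01 and 0.1, averaged probe sets per gene, and leaving out each array. Figures were drawn with matplotlib 3.10.9.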

Additional observations from a re-analysis of the deposited data

Results flagged for a closer look

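In 1 of 22 sets of 4 values (11 probe sets in each fraction), an array stood far from the others by Dixon's criterion, which chance meets in about 1 in 20. This was Pdcd1lg2 in low replicate 3, at a log2 signal of 8.85, where the next lowest low array was at 9.16 (the gap was 0.831 of the range, just past the criterion).
Without that array the Pdcd1lg2 difference was 0.116.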

How the results depend on the processing

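Leaving out dim probe sets changed no direction or call of a member. The first Cd83 probe set, the 1 called, was not called at a threshold of 0.01 (0.289), with the replicate block (0.289) or after quantile normalization (0.215). It was also not called after median centring (0.275), with the spike-in covariate (0.095) or as the mean of both probe sets (0.174). Each of these settings left 0 members called. In the same order, 3, 4, 1, 3, 0 and 3 members had an unadjusted limma p under 0.05. Over all 22206 probe sets, those at that p were 3407 higher and 2246 lower in the first setting. They were 3515 and 2337 with the block, 2824 and 2753 after quantile normalization, and 3053 and 2541 after centring. With the covariate they were 504 and 628, and with averaged probe sets 3406 and 2240 of 22139. An intensity trend with a robust fit called 2, adding Cd86 (0.186). The second Cd83 probe set turned to -0.019 (quantile) and -0.008 (spike-in), Cd200 to 0.026 (array weights) and Cmtm6 to -0.045 (spike-in); the cause was not tested. Over all probe sets, 73 rose and 113 fell at 0.01, 2061 and 1174 at 0.1, 1950 rose under the trend, and 0 and 0 were called with the spike-in covariate (504 and 628 at an unadjusted limma p under 0.05). Pathway list genes called higher were 1 at 0.01 (3 lower), 14 at 0.1, 5 after quantile normalization, 5 after centring, 19 under the trend and 0 with the covariate (0 lower). Leaving out each array left 0 members called, with 1 to 3 at an unadjusted limma p under 0.05. Over all 22206 probe sets, 2536 to 3634 were higher and 1775 to 2447 lower at that p in these omissions. The first Cd83 probe set then ranged from 0.260 to 0.326, Vsir from -0.032 to 0.009 and Cd200 from -0.072 to 0.061. All calls ranged from 183 to 1680 higher and from 218 to 793 lower, and pathway list calls from 2 to 10 higher and from 4 to 10 lower. Same-numbered arrays correlated at 0.271, 0.0548, 0.0152 and 0.0391 in their deviations from the group means, and not every array did so best with its own number, so the replicate block pairs arrays by number alone. Cd276 lies nearest to background.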
